A study of Mus musculus with 28 samples.

Results

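Newly made RNA was compared between mouse macrophages depleted of Wdr82 with the short hairpin sh1137 and control macrophages, both 45 min after lipopolysaccharide (LPS), a bacterial cell wall component. The comparison rests on 4 of the 28 libraries of the series, chosen by their labels as the sh1137 and control cells given LPS for 45 min without DRB, an inhibitor of transcription elongation. They form 2 pairs of a knockdown and a control library, each pair quantified in a table of its own. In the unstranded pair, cells with sh1137 stood against cells with the empty retroviral vector LMP. In the stranded pair, cells with sh1137 stood against cells with a scrambled hairpin. All cells were macrophages grown for 7 days from the bone marrow of FVB/Hsd mice, infected with retrovirus, selected with puromycin, given 10 ng/ml LPS, and labelled for 45 min with 4-thiouridine (4sU), a nucleoside that marks newly made RNA for purification. For reference, 4 libraries of untreated cells were used, namely sh1137 and LMP cells of an unstranded and of a stranded set.

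Each condition had 1 library per table, so the replicates are the 2 pairs, and the labels do not say that they came from separate mice or cultures. The p-values below measure only the spread between pairs, at 45 min and in untreated cells, moderated by the spread of all genes tested. The same hairpin was used in both pairs, so an effect of losing Wdr82 and an effect particular to the sequence of sh1137 cannot be told apart within them. Because the unstranded control carried no hairpin, carrying a hairpin is a further difference in that pair. Levels are in FPKM, the fragments of a gene divided by its transcript length in kilobases and by the size of the library. Between 12350 and 13736 of the 36806 genes reached 1 FPKM per library, and 262 to 264 genes per library had a status other than OK. The pairs were scaled separately, and the control of the stranded pair held less of several LPS-responsive transcripts than LMP (Tnf at 2520 FPKM in scrambled controls and 4956 FPKM in LMP controls). Markers of macrophages summed to 5097 and 4523 FPKM in the sh1137 libraries of the unstranded and the stranded pair, against 6566 and 4996 FPKM in their controls. Of 25 macrophage markers 23 reached 1 FPKM. All 6 erythroid markers were at 0 in the 4 libraries. Of 11 neutrophil markers 8 reached 1 FPKM in a library, and they summed to 38.5 and 5.85 FPKM in sh1137 cells, against 45.5 and 7.71 FPKM in controls, mostly S100a8 and S100a9, with Ly6g at 0. Of 10 lymphocyte markers 2 reached it, summing to 7.96 and 3.81 FPKM in sh1137 cells, against 8.94 and 2.31 FPKM in controls, mostly Ighm, with Cd3e at 0. Of 5 mast cell and basophil markers only Kit reached it, at 0.291 and 6.11 FPKM in sh1137 cells, against 0.868 and 8.07 FPKM in controls, with Fcer1a at 0. Of 5 dendritic cell markers 2 reached it, and the list summed to 3.42 and 2.88 FPKM in sh1137 cells, against 1.77 and 1.60 FPKM in controls. Their part in the results was not tested.

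Wdr82 is a small adaptor protein. It is a subunit of the SET1A and SET1B COMPASS complexes, which methylate lysine 4 of histone H3 at promoters, and of the PTW/PP1 phosphatase complex with Pnuts (Ppp1r10) and Tox4. In mammalian cells it also works with the zinc finger protein Zc3h4 to stop RNA polymerase II early on noncoding and extragenic transcription units. In macrophages, LPS switches on within minutes a programme of immediate early and inflammatory genes, so 45 min of labelled RNA captures its first wave.

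Wdr82 itself was at 11.7 and 16.3 FPKM in the sh1137 libraries of the unstranded and the stranded pair, against 23.8 and 28.5 FPKM in their controls. Both knockdown libraries were below both controls. The mean log2 ratio was -0.87 ± 0.14 (SD, n = 2 pairs), and it did not pass the test across all genes (limma adjusted p = 0.057). About the same loss stood in untreated cells, with log2 ratios of -1.01 and -0.72. The gene shares its mapped locus on chromosome 9 (106073259 to 106094747, mm9) with another gene of the tables.

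By ratios of FPKM + 1, no partner of Wdr82 was 2-fold changed in both pairs, with Zc3h4 near that bound. Ppp1r10, which encodes the PP1 targeting subunit Pnuts, was at 277 and 264 FPKM in sh1137 cells, against 98.1 and 142 FPKM in controls. It was higher in both pairs and rose by a mean log2 ratio of 1.19 ± 0.42 (SD, n = 2 pairs; limma adjusted p = 0.048). Zc3h4 was at 46.2 and 40.1 FPKM in sh1137 cells, against 20.0 and 19.7 FPKM in controls, and rose by 1.08 ± 0.13 (SD, n = 2 pairs; limma adjusted p = 0.035). Tox4, the DNA-binding subunit of PTW/PP1, had log2 ratios of 0.044 and 0.072. None of the 8 tested COMPASS subunits passed the test, among them Setd1a at -0.29 and -0.32, and 7 of the 8 were below their control in both pairs, against 34.5% of all genes tested. Of 21 tested genes of the restrictor and the nuclear exosome, the complex that degrades nuclear RNA, Zc3h4 was the 1 that passed. None of 32 genes of Integrator, cleavage and termination passed.

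Across all genes, more transcripts were higher than lower in sh1137 cells. Of 12451 genes tested in both pairs, 263 were at least 2-fold higher in both (2.11% of the genes tested) and 48 at least 2-fold lower in both (0.386%). A gene was tested when it reached 1 FPKM in either library of each pair, and ratios are log2 of FPKM + 1. At any size, 30.3% of the tested genes were above their control in both pairs and 34.5% below it. Taken singly, the unstranded pair had 8.38% of its 14169 tested genes 2-fold higher and 3.26% lower. The stranded pair had 4.12% of 13089 higher and 1.93% lower. Of the genes 2-fold higher in the unstranded pair and tested in both, 35.2% were also 2-fold higher in the stranded pair, and 63.8% the other way round. For lower genes these shares were 14.7% and 27.9%. The median gene had log2 ratios of -0.00028 (unstranded pair) and -0.034 (stranded pair). The plot of the ratios of one pair against the other shows this spread for 9824 genes with gene names.

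**Figure D1:**
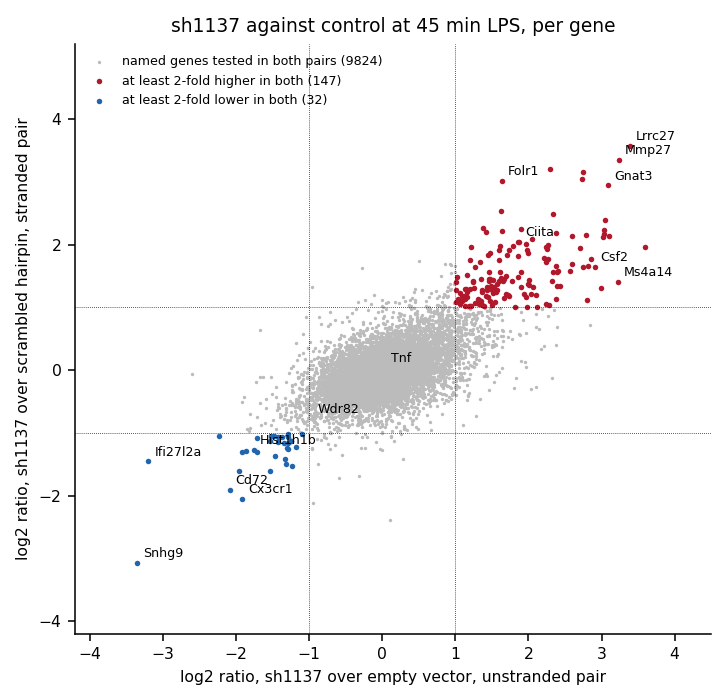
Each point is a gene, with its log2 ratio of sh1137 over empty vector in the unstranded pair on the x axis and of sh1137 over scrambled hairpin in the stranded pair on the y axis. Red marks 147 genes at least 2-fold higher and blue 32 genes at least 2-fold lower in both pairs; dotted lines mark 2-fold, and no gene with a gene name lies in the 2 opposite corners.

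The test across all genes was limma on the 4 ratios of sh1137 to control, 2 at 45 min and 2 in untreated cells, with 1 mean per time. It was run on 11938 genes that passed the filter in all 4. At an adjusted p under 0.05, 203 genes rose at 45 min (1.7%) and 52 fell (0.436%). Of these, 158 and 32 were also 2-fold changed in both pairs. These calls lean on how the spread is modelled: with a spread that depends on the level of a gene, limma called 0 genes (2571 at an unadjusted p under 0.05, against 2496 without such a trend), and with the 2 ratios at 45 min alone it called 141. Without the unstranded pair at 45 min it called 1 gene, and without the stranded one 2 genes. The deposited bounds of knockdown and control did not overlap in either pair for 24 of the 263 higher genes and 0 of the 48 lower ones. Among genes with gene names, leaving out small RNAs, clones and predicted genes, 147 of 9824 were higher in both (1.5%) and 32 lower in both (0.326%), and the 2 ratios had a Pearson r of 0.608 and a Spearman rho of 0.484 across these genes, which share libraries and are not independent.

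The higher genes were mostly weakly transcribed ones. Levels were taken from scrambled 45 min controls of 2 other sets, the Set1a+Set1b and the Pnuts set, which entered no ratio here. Under 5 FPKM there, 102 of 1816 genes with gene names were 2-fold higher in both pairs (5.62%) and 2 were lower (0.110%). From 5 to 20 FPKM, 35 of 3754 were higher (0.932%) and 7 lower (0.186%). From 20 to 100 FPKM, 7 of 3608 were higher (0.194%) and 12 lower (0.333%). At 100 FPKM or more, 3 of 646 were higher (0.464%) and 11 lower (1.70%). Weak genes enter only where a library reaches 1 FPKM, which favours genes that differ, so the share under 5 FPKM is a description.

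The highest ratio among genes that reached 5 FPKM in each pair belonged to Lrrc27, a leucine-rich repeat protein. It was at 99.7 and 90.5 FPKM in sh1137 cells, against 8.58 and 6.72 FPKM in controls, far apart in both pairs. It rose 11.2-fold, a mean log2 ratio of 3.48 ± 0.12 (SD, n = 2 pairs; limma adjusted p = 0.0049). Its locus on chromosome 7 (146289536 to 146428878, mm9) holds 2 genes. Gnat3, the alpha subunit of the taste G protein gustducin, was at 14.1 and 12.1 FPKM in sh1137 cells, against 0.774 and 0.701 FPKM in controls (limma adjusted p = 0.0075). Fhad1, a forkhead-associated domain protein, was at 21.1 and 19.0 FPKM in sh1137 cells, against 2.30 and 1.24 FPKM in controls (limma adjusted p = 0.0072).

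Ctsk encodes cathepsin K, the collagen-degrading protease of osteoclasts. It was at 9.88 and 27.9 FPKM in sh1137 cells, against 1.22 and 2.13 FPKM in controls, and rose by 2.75 ± 0.65 on the log2 scale (limma adjusted p = 0.011). F7, coagulation factor VII, was at 13.3 and 6.38 FPKM in sh1137 cells, against 0.731 and 0.398 FPKM in controls, and rose by 2.72 ± 0.45 (limma adjusted p = 0.0072). F10, coagulation factor X, just outside the 15 highest, lies beside it on chromosome 8 (F7 at 13026033 to 13035809, F10 at 13037307 to 13056676, mm9). F10 was at 34.2 and 8.81 FPKM in sh1137 cells, against 3.88 and 1.88 FPKM in controls, and rose as well (limma adjusted p = 0.027). Atp11a, the active gene upstream of both on the same strand in RefSeq, had log2 ratios of 0.070 and 0.11. Active here means 20 FPKM or more in the scrambled 45 min controls of both other sets. Arnt, the active gene upstream of Ctsk on the same strand, had log2 ratios of -0.091 and -0.082. Ctsl, cathepsin L, was at 156 and 373 FPKM in sh1137 cells, against 81.7 and 153 FPKM in controls, and also rose (limma adjusted p = 0.041). Thus 2 of 11 tested cathepsins rose by the test, against 1.7% of all genes in it. Pla2g7, the plasma type of platelet-activating factor acetylhydrolase, was at 44.8 and 19.0 FPKM in sh1137 cells, against 4.57 and 3.43 FPKM in controls (limma adjusted p = 0.013).

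Genes of regulation and signalling were among the 15 as well. Hexim2, which with 7SK RNA inhibits the elongation kinase P-TEFb, was at 29.2 and 8.72 FPKM in sh1137 cells, against 2.70 and 1.07 FPKM in controls (limma adjusted p = 0.0096). Tnfrsf8, the receptor CD30, was at 17.6 and 5.38 FPKM in sh1137 cells, against 1.29 and 0.474 FPKM in controls (limma adjusted p = 0.014). Dhx34, an RNA helicase of nonsense-mediated decay, was at 41.2 and 25.1 FPKM in sh1137 cells, against 5.13 and 4.86 FPKM in controls (limma adjusted p = 0.010). Gpr77, a receptor for complement C5a that lies upstream of Dhx34 on chromosome 7 and was just outside the 15 highest, was at 29.7 and 10.9 FPKM in sh1137 cells, against 4.90 and 1.62 FPKM in controls, and rose as well (limma adjusted p = 0.0072). C5ar1, which lies beyond Gpr77, had log2 ratios of -0.000099 and -0.20. Kif5c, a kinesin heavy chain, and Folr1, a folate receptor, had mean log2 ratios of 2.37 and 2.33 and also rose. Ms4a14, of a family of membrane-spanning proteins, was at 35.1 and 33.9 FPKM in sh1137 cells, against 2.85 and 12.2 FPKM in controls. Its pairs differed in size, and it missed the threshold (limma adjusted p = 0.055). Ms4a7, the active gene upstream of Ms4a14 on the same strand, had log2 ratios of 1.33 and 0.55 and did not pass (limma adjusted p = 0.088).

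**Figure D2:**
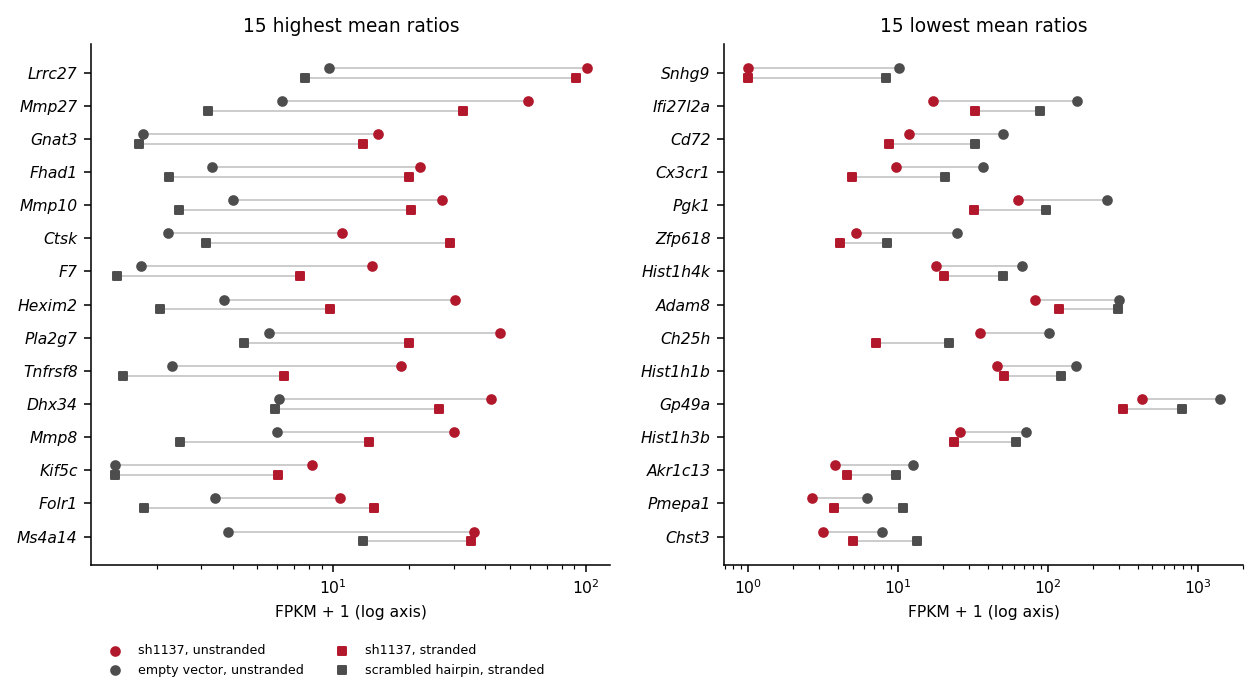
FPKM + 1 on a log axis for the 15 genes with the highest and the 15 with the lowest mean ratios, with sh1137 in red and the control in grey, circles for the unstranded and squares for the stranded pair. For each gene on the left both red marks lie to the right of their grey partner, from Lrrc27 at 99.7 FPKM in sh1137 cells and 8.58 FPKM in LMP cells downward, and on the right both lie to the left of it.

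Of the matrix metalloproteinases and their kin, enzymes that cut extracellular matrix, 10 were tested. In both pairs 1 was 2-fold lower (10%, against 0.386% of all genes tested). Another 3 were 2-fold higher in both (30%, against 2.11%), namely Mmp27, Mmp10 and Mmp8. The 3 lie in a row on chromosome 9 (mm9), where Mmp10 spans 7502351 to 7510238, Mmp8 spans 7558428 to 7568486 and Mmp27 spans 7571395 to 7581885. Mmp27 was at 58.2 and 31.6 FPKM in sh1137 cells, against 5.26 and 2.18 FPKM in controls, a mean log2 ratio of 3.30 ± 0.081 (SD, n = 2 pairs; limma adjusted p = 0.0049). Mmp10, stromelysin 2, was at 25.8 and 19.3 FPKM in sh1137 cells, against 3.03 and 1.45 FPKM in controls. Mmp8, the neutrophil collagenase, was at 29.0 and 12.8 FPKM in sh1137 cells, against 4.97 and 1.47 FPKM in controls. Mmp10 and Mmp8 rose with the same adjusted p of 0.0072 (limma), and in all 3 genes the sh1137 libraries lay above every control.

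Other genes of the cluster had other ratios. Mmp13, collagenase 3, begins the cluster and was at 213 and 89.8 FPKM in sh1137 cells, against 111 and 30.0 FPKM in controls. It rose by 1.24 ± 0.44 on the log2 scale (limma adjusted p = 0.041). Mmp12, macrophage elastase, was at 208 and 331 FPKM in sh1137 cells, against 280 and 336 FPKM in controls, and Mmp3 and Mmp1a were at or near 0 in the 4 libraries. Adam8, a cell surface protease encoded elsewhere, was at 82.0 and 119 FPKM in sh1137 cells, against 300.3 and 293.5 FPKM in controls, and fell by 1.58 ± 0.40 (limma adjusted p = 0.030).

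To show how the neighbours that rose together differ at their starts, the 250 bases before the RefSeq start of each are given from GRCm38.p6, plus strand, with capitals marking TATAAA (the TATA box) or TGANTCA (the AP-1 site) on either strand. Mmp10 is at chr9:7502092-7502341, Mmp8 at chr9:7558179-7558428 and Mmp27 at chr9:7571146-7571395.
Mmp10: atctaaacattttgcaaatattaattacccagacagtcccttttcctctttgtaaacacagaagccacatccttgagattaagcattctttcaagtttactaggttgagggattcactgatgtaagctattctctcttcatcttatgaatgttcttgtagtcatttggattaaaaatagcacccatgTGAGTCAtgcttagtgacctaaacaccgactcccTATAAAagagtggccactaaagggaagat
Mmp8: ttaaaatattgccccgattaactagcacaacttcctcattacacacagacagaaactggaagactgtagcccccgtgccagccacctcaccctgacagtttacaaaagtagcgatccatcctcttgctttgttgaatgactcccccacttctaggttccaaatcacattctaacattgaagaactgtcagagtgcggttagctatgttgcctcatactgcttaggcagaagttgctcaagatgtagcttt
Mmp27: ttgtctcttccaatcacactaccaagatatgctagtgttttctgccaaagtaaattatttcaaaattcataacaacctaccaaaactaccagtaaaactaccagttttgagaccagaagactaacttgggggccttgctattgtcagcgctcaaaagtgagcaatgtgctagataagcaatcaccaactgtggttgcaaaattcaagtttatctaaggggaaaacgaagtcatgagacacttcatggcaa
In these windows Mmp10 held TGAGTCA from base -63 to -57 and TATAAA from -29 to -24, counted back from the start, and the other two held neither motif. Among the 27025 promoters of the table, 13% held TATAAA and 6.87% held TGANTCA in the same window. Among the 7440 promoters found for tested genes with gene names, the shares were 5.99% and 4.18%. A match is a description of the letters only.

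The 15 lowest included Snhg9, a host transcript of small RNAs, the interferon gene Ifi27l2a, and Zfp618, a zinc finger gene at 4.29 and 3.11 FPKM in sh1137 cells, against 23.8 and 7.55 FPKM in controls (limma adjusted p = 0.25). Cd72, an inhibitory receptor of B cells and myeloid cells, was at 11.0 and 7.75 FPKM in sh1137 cells, against 49.6 and 31.8 FPKM in controls. It fell by 1.99 ± 0.13 on the log2 scale (SD, n = 2 pairs; limma adjusted p = 0.0073). Cx3cr1, the fractalkine receptor of monocytes and macrophages, was at 8.80 and 3.98 FPKM in sh1137 cells, against 35.9 and 19.7 FPKM in controls, and fell by 1.98 ± 0.10 (limma adjusted p = 0.012). In each of these receptors both sh1137 libraries lay below both controls. Pgk1, phosphoglycerate kinase of glycolysis, was at 62.8 and 31.1 FPKM in sh1137 cells, against 248 and 96.9 FPKM in controls, and fell by 1.79 ± 0.25 (limma adjusted p = 0.050, under 0.05 before rounding). Gp49a, a receptor whose near-identical copy Lilrb4 can share its reads, was at 426 and 319 FPKM in sh1137 cells, against 1403 and 786 FPKM in controls, and is uncertain for that reason.

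Histone transcripts were lower as a group. Of 58 tested histone genes, 53 were below their control in both pairs (against 34.5% of all genes tested) and 2 above it, with median log2 ratios of -1.01 (unstranded pair) and -0.53 (stranded pair). In both pairs 5 were at least 2-fold lower (8.62%, against 0.386% of all genes tested). By the limma test 6 fell (against 0.436% of all) and 1, Hist2h2be, rose. Hist1h1b, a linker histone, was at 44.7 and 50.0 FPKM in sh1137 cells, against 153 and 122 FPKM in controls (limma adjusted p = 0.027). Hist1h4k, Hist1h3b, Hist1h2bf and Hist1h3d fell too, with mean log2 ratios of -1.61, -1.41, -1.26 and -1.20. These genes have near-identical copies, so reads may be divided between them. Cell cycle and replication genes, whose products are made as cells divide, had medians of -0.70 and -0.36, and 29 of 30 were below their control in both pairs (against 34.5% of all). Only Rrm2, a subunit of ribonucleotide reductase, passed the test among them, at 18.3 and 28.4 FPKM in sh1137 cells, against 44.8 and 55.6 FPKM in controls (limma adjusted p = 0.035). In bulk RNA, fewer dividing cells and less RNA per cell cannot be told apart.

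Host transcripts of small nucleolar RNAs were lower as well, with medians of -0.78 and -0.58 over 9 tested genes and 8 of them below their control in both pairs (against 34.5% of all). Snhg5 was at 18.6 and 14.7 FPKM in sh1137 cells, against 49.9 and 32.0 FPKM in controls, and fell by 1.22 ± 0.22 on the log2 scale (limma adjusted p = 0.028). Snhg9 was listed at 0 in both sh1137 libraries, against 9.20 and 7.38 FPKM in controls, and shares its locus with small RNA genes. Gas5 had ratios of -1.02 and -0.66 and did not pass (limma adjusted p = 0.064). Of 74 ribosomal protein genes 72 were in the limma test and none passed. The medians of the 74 were -0.38 (unstranded) and -0.06 (stranded). Glycolysis genes had medians of -0.37 and -0.26 over 19 genes, of which Pgk1 was the 1 that passed.

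Macrophage receptors went both ways. Among 22 tested macrophage markers, 2 were 2-fold higher in both pairs (9.09%, against 2.11% of all genes tested) and 3 lower (13.6%, against 0.386%). The medians were -0.31 and -0.01. Stab1, a scavenger receptor, was at 91.0 and 45.7 FPKM in sh1137 cells, against 233 and 104 FPKM in controls, and fell (limma adjusted p = 0.026). Mpeg1, the pore-forming perforin-2, was at 254 and 244 FPKM in sh1137 cells, against 620 and 495 FPKM in controls, and fell (limma adjusted p = 0.034). Fcgr4, an activating receptor for IgG, was at 21.7 and 14.5 FPKM in sh1137 cells, against 6.04 and 4.44 FPKM in controls, and rose (limma adjusted p = 0.035). Mrc1, the mannose receptor, was 2-fold higher in both pairs at 87.8 and 39.8 FPKM in sh1137 cells, against 37.8 and 11.1 FPKM in controls, and missed the threshold (limma adjusted p = 0.097).

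C-type lectin receptors bind sugars on microbes. In both pairs 4 of 14 were 2-fold higher (28.6%, against 2.11% of all genes tested) and none lower (against 0.386%). Clec4n (Dectin-2) was at 36.4 and 16.5 FPKM in sh1137 cells, against 12.4 and 5.90 FPKM in controls (limma adjusted p = 0.041). Clec4a1 and Clec4a3, neighbours of one family, had mean log2 ratios of 1.55 and 1.52 and also rose. Genes of lipid handling and the liver X receptor had medians of 0.72 and 0.34, and 3 of 16 tested by limma rose (against 1.7% of all). They were Pla2g7, Pltp, the phospholipid transfer protein, at 16.8 and 24.5 FPKM in sh1137 cells, against 6.72 and 11.6 FPKM in controls, and Abca1, the cholesterol exporter, at 17.5 and 16.3 FPKM in sh1137 cells, against 6.59 and 8.35 FPKM in controls. Pecam1, listed among stroma markers but also made by myeloid cells, was at 6.48 and 2.94 FPKM in sh1137 cells, against 0.606 and 0.144 FPKM in controls, and rose (limma adjusted p = 0.012). Pdgfrb, of the same list, was at 3.13 and 0.909 FPKM in sh1137 cells, against 0.589 and 0.342 FPKM in controls, while the collagens Col1a1, Col1a2 and Col3a1 stayed under 1 FPKM in all 4 libraries.

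**Figure D3:**
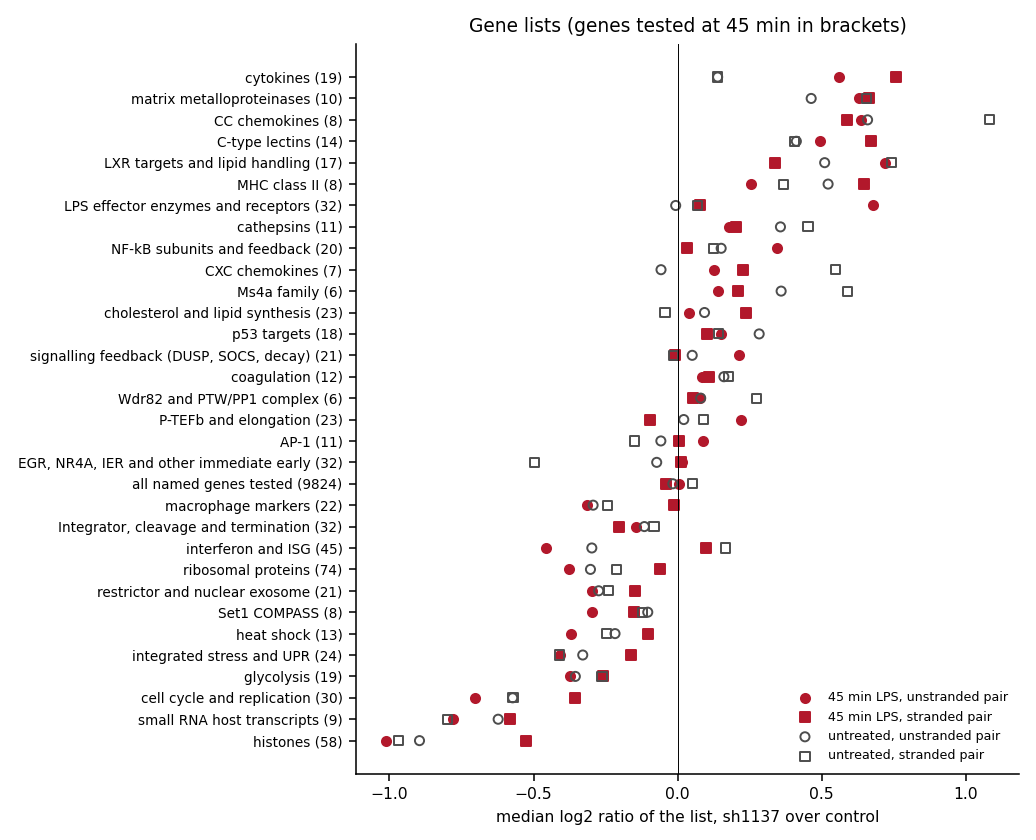
Median log2 ratio of sh1137 over control for each gene list with at least 5 tested genes (their number in brackets), red for the pairs at 45 min of LPS and grey outlines for the untreated pairs, circles for unstranded and squares for stranded. At 45 min histones lie at -1.01 and -0.53 and cytokines at 0.56 and 0.76. The untreated medians of the cytokines were 0.14 and 0.14. Only 10 of the 19 cytokines reached the level filter in untreated cells too, and ratios of FPKM + 1 are held near 0 for genes below it. The order of the lists differs between the pairs.

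Genes that LPS switches on were tilted upward, mainly in the unstranded pair, where the median of LPS-reduced genes was positive as well. LPS-induced genes were taken as those at least 2-fold higher at 45 min than in untreated cells in the scrambled controls of both other sets, so none of the 4 libraries chose them. Of 402 such genes 378 were tested at 45 min, and 27 were 2-fold higher in both pairs (7.14%, against 2.11% of all genes tested) and 4 lower (1.06%, against 0.386%). Their median log2 ratio was 0.30 (unstranded pair) and 0.09 (stranded pair), beside 0.06 and 0.08 in the untreated pairs. By limma, 18 of 324 rose (against 1.7% of all) and 3 fell (against 0.436%). Of 98 tested genes that LPS reduced, 1 was 2-fold higher in both pairs (1.02%, against 2.11% of all) and none lower. The medians of these 98 were 0.24 (unstranded pair) and -0.02 (stranded pair). In the unstranded pair the upward median was thus not particular to LPS-induced genes.

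The genes that LPS induced most did not change 2-fold in both pairs. Tnf was at 5081 and 2596 FPKM in sh1137 cells, against 4956 and 2520 FPKM in controls, log2 ratios of 0.036 and 0.043. Cxcl2 was at 3947 and 2211 FPKM in sh1137 cells, against 4380 and 1890 FPKM in controls. Tnfaip3, the feedback inhibitor A20, had log2 ratios of 0.18 and 0.15, and Nfkbiz had 0.21 and 0.033. Cxcl1 was higher in both pairs, at 2925 and 922 FPKM in sh1137 cells, against 2073 and 545 FPKM in controls, and did not pass (limma adjusted p = 0.20). Cd83 had ratios of 0.92 and 0.76 (limma adjusted p = 0.054), Egr1 0.29 and 0.87, Ccrl2 0.54 and 0.27, Socs3 0.33 and -0.23, and Ptgs2 0.0062 and -0.24. In the plot of LPS-induced genes, Tnf, Cxcl2 and Tnfaip3 lie near 0, whereas Cd83, Egr1 and Cxcl1 lie above it.

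Weaker LPS targets supplied the genes that were higher in both pairs. Cxcl3, a neutrophil-attracting chemokine, was at 77.7 and 9.29 FPKM in sh1137 cells, against 10.2 and 2.27 FPKM in controls, and rose by 2.23 ± 0.82 on the log2 scale (limma adjusted p = 0.035). Pf4, its active upstream neighbour, had ratios of 0.93 and 0.60 and did not pass (limma adjusted p = 0.13). Csf2, the growth factor GM-CSF, was at 27.2 and 4.38 FPKM in sh1137 cells, against 2.76 and 0.711 FPKM in controls, and was under the level filter in untreated cells, so it has no p. Ccl12, a monocyte chemokine, was at 226 and 78.3 FPKM in sh1137 cells, against 84.1 and 16.2 FPKM in controls, and rose (limma adjusted p = 0.027). Further LPS-induced genes that were 2-fold higher in both pairs were Olfr433, an olfactory receptor, with a mean log2 ratio of 2.62, Dpys with 2.02, Lrrc63 with 1.95 and Thap6 with 1.88, together with Mmp10 and F10. Ccl6, a CC chemokine that was not among the LPS-induced genes, was at 135 and 62.9 FPKM in sh1137 cells, against 48.1 and 16.4 FPKM in controls, and rose (limma adjusted p = 0.027).

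The promoter of Cxcl3 is given because this chemokine was both LPS-induced and higher in sh1137 cells, with the same motifs in capitals, in the 250 bases before its RefSeq start at chr5:90785851-90786100 (GRCm38.p6, plus strand).
Cxcl3: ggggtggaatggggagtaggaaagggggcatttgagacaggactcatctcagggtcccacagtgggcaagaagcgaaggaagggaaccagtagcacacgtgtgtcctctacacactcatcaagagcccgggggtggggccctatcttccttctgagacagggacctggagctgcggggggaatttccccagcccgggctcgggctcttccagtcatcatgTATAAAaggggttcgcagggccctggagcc
It held TATAAA from base -30 to -25 and no TGANTCA.

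Among cytokines, 16 of 19 tested genes were above their control in both pairs (against 30.3% of all) and none below it in both (against 34.5%), with medians of 0.56 and 0.76. Only 10 of them reached the level filter in untreated cells too, and none of these passed the test. Il1a was at 57.0 and 3.62 FPKM in sh1137 cells, against 12.4 and 1.3 FPKM in controls, and Lta at 10.0 and 1.96 FPKM in sh1137 cells, against 1.63 and 0.185 FPKM in controls. Both were 2-fold higher in both pairs. Of the immediate early genes, Ier3 rose (818 and 401 FPKM in sh1137 cells, against 271 and 218 FPKM in controls; limma adjusted p = 0.050, under 0.05 before rounding). Egr2 was 2-fold higher in both pairs without passing (limma adjusted p = 0.12), and none of 11 AP-1 genes passed, among them Fos at log2 ratios of -0.38 and -0.16. No gene of the 20 NF-kB subunits and feedback factors passed, and 11 were above their control in both pairs (against 30.3% of all). Of 32 LPS effector enzymes and receptors 24 were in the limma test, and Mmp13 was the 1 that passed. Slc7a11, the cystine transporter, was 2-fold higher in both pairs at 39.9 and 22.3 FPKM in sh1137 cells, against 7.64 and 10.2 FPKM in controls, and missed the threshold (limma adjusted p = 0.054). Genes of signalling feedback (21 tested), P-TEFb and elongation (23), p53 targets (18), the integrated stress response (24), heat shock (13) and cholesterol synthesis (23) had no member that passed, with 18 of the signalling feedback and 11 of the heat shock genes in the limma test.

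The 45 tested interferon genes had medians of -0.46 (unstranded pair) and 0.10 (stranded pair). In both pairs 3 were 2-fold lower (6.67%, against 0.386% of all genes tested) and none higher. Ch25h, which makes 25-hydroxycholesterol, was at 34.5 and 6.20 FPKM in sh1137 cells, against 102 and 20.9 FPKM in controls, and fell (limma adjusted p = 0.031). Oas2, an RNA sensor, was at 11.2 and 15.9 FPKM in sh1137 cells, against 34.2 and 33.9 FPKM in controls, and fell (limma adjusted p = 0.037). Ifi27l2a was at 16.2 and 31.6 FPKM in sh1137 cells, against 157 and 88.3 FPKM in controls, and its unequal pairs left it above the threshold (limma adjusted p = 0.075). Isg20, a nuclease, rose (limma adjusted p = 0.050, under 0.05 before rounding).

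**Figure D4:**
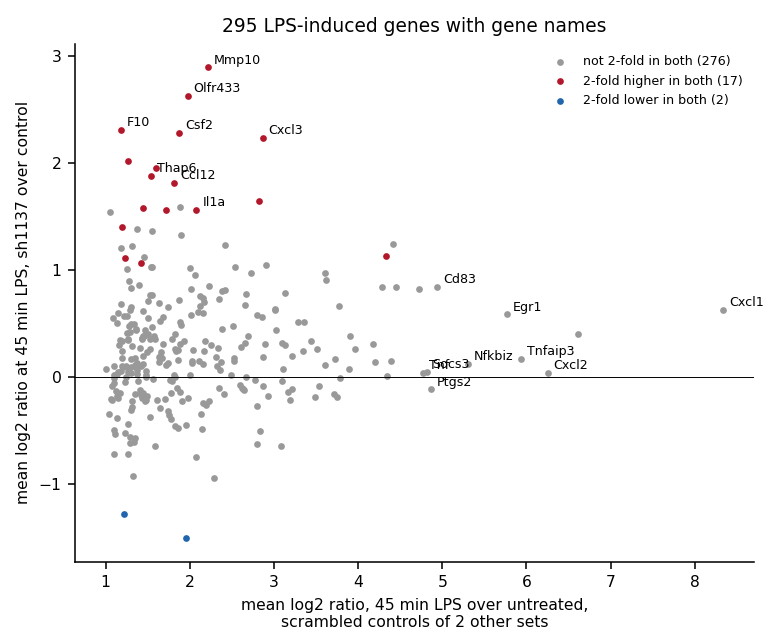
Each point is 1 of 295 LPS-induced genes with gene names, with its mean log2 ratio of 45 min LPS over untreated in the scrambled controls of the 2 other sets on the x axis and its mean log2 ratio of sh1137 over control at 45 min on the y axis. Red marks 17 genes 2-fold higher and blue 2 genes 2-fold lower in both pairs; Tnf, among the 10 genes induced most, lies at 0.04.

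Most of the higher genes were protein-coding, but tested long noncoding genes were more often higher. RefSeq classes were found for 12002 of the 12451 tested genes. Of 285 tested long noncoding RNA genes, 45 were 2-fold higher in both pairs (15.8%) and 2 lower (0.702%), whereas 159 of 10481 protein-coding genes were higher (1.52%) and 31 lower (0.296%). The medians of the noncoding genes were 0.60 (unstranded) and 0.22 (stranded), and those of coding genes 0.01 and -0.04. Restricted to genes under 5 FPKM in the scrambled controls of the other sets, 40 of 199 tested noncoding genes were higher (20.1%) and 108 of 1822 coding genes (5.93%). These 199 and 1822 were the tested part of 2120 and 12232 such genes in the tables, and the unstranded pair cannot tell a noncoding gene from an antisense partner. Weak genes enter only where a library reaches 1 FPKM, which favours genes that differ, so these shares are a description. The difference between the classes was not tested.

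The largest ratios among the long noncoding genes, named here after their values were seen, belonged to Gm12589, E230016K23Rik and Gm16217. Gm12589 had a locus of its own on chromosome 11 (121664420 to 121671633, mm9). It was at 71.0 and 27.7 FPKM in sh1137 cells, against 5.57 and 0.958 FPKM in controls, and rose by 3.66 on the log2 scale (limma adjusted p = 0.0049). E230016K23Rik was at 41.7 and 6.28 FPKM in sh1137 cells, against 1.14 FPKM and a listed 0 in controls. Gm16217 was at 13.7 and 7.26 FPKM in sh1137 cells and listed at 0 in both controls. The loci of E230016K23Rik and Gm16217 each hold 2 genes, so reads of the unstranded pair may belong to the other gene. The 2 lower long noncoding genes were the host transcripts Snhg5 and Snhg9.

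Only some of the called genes could be placed beside a neighbour. Of 147 higher genes with gene names 113 had a RefSeq strand and 94 a locus of their own, and of 32 lower ones 26 and 18. Under 80% of the higher genes had either value, so checks of gene length and of the gap to a neighbour on a known strand were void for them.

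Most of these genes were 2-fold changed without LPS as well. Of the 147 higher genes with gene names, 124 were tested in the untreated unstranded pair and 100 of these were 2-fold higher there (80.6%, against 2.77% of all genes with gene names tested). In the untreated stranded pair it was 108 of 127 (85.0%, against 4.31%), and in neither was a higher gene 2-fold lower. Of the 32 lower genes, 25 of 31 were 2-fold lower in the untreated unstranded pair (80.6%, against 1.28%) and 24 of 32 in the stranded one (75%, against 1.73%). Zfp618 went the other way in the untreated unstranded pair, at 13.5 FPKM in sh1137 cells, against 4.91 FPKM in controls. The untreated libraries were not used to choose these genes and share no library with them, but they carry the same hairpin. Mmp27, for example, had log2 ratios of 3.45 and 3.63 in untreated cells, Lrrc27 3.28 and 2.92, and Cd72 -2.16 and -2.21.

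A test of the difference between 45 min of LPS and untreated cells called no gene. In the stranded pairs the control was a scrambled hairpin at 45 min and LMP in untreated cells, in different sets. In those pairs LPS, control vector and set cannot be told apart. The limma contrast of the 2 ratios at 45 min against the 2 in untreated cells had 0 of 11938 genes at an adjusted p under 0.05 (0% in either direction), and 443 at an unadjusted p under 0.05. The smallest adjusted p was 0.15. Leaving out the unstranded untreated pair gave 8 genes, and leaving out the stranded one gave 14, with the lone untreated pair assumed to vary like the pairs at 45 min.

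A few genes had their largest ratios after LPS without passing, and the same limit of the stranded pairs holds for them. Ciita, the master activator of MHC class II genes, was at 6.00 and 8.47 FPKM in sh1137 cells, against 0.915 and 1.3 FPKM in controls. Its log2 ratios of 1.87 and 2.04 at 45 min stood beside 0.24 and 0.31 in untreated cells, a difference of 1.68 (limma adjusted p = 0.25). At 45 min by itself Ciita rose (limma adjusted p = 0.0075), while its target Cd74 had ratios of 0.59 and 0.83 and did not pass (limma adjusted p = 0.076). Hexim2 differed by 1.79 (limma adjusted p = 0.76). Csf2 had ratios of 0.17 and 0 in untreated cells, where it was under the filter. In the other direction, Zkscan4 had ratios of 0.16 and 0.035 at 45 min and 3.14 and 2.56 in untreated cells (limma adjusted p = 0.15). Its level was erratic, at 0.31 FPKM in sh1137 cells with DRB at 45 min, against 42.6 FPKM in the scrambled control. Its log2 ratios at 1 h and 2 h of LPS were -0.17 and -0.20. Mmp13 and Entpd1, the ectonucleotidase CD39, had smaller ratios after LPS than before, with differences of -1.16 and -1.39 and adjusted p-values of 1.00 and 0.87 (limma).

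Most were also 2-fold changed in the other libraries with sh1137. In the stranded set 1 h after LPS, 117 of 138 tested higher genes were 2-fold higher (84.8%, against 4.85% of all), and 21 of 32 lower genes were 2-fold lower (65.6%, against 2.54%). After 2 h in the unstranded set it was 99 of 134 (73.9%, against 3.48%) and 22 of 32 (68.8%, against 1.80%). After 4 h it was 88 of 131 (67.2%, against 2.94%) and 19 of 29 (65.5%, against 1.65%). At 45 min with DRB, it was 70 of 118 (59.3%, against 2.43%) and 22 of 32 (68.8%, against 2.15%). In these 4 pairs, 2 of the higher genes were 2-fold lower, Csf2 and Il1a, both at 4 h. Csf2 had log2 ratios of 1.40 at 1 h and -2.38 at 4 h, and Il1a had 1.37 at 1 h and -1.51 at 4 h. Cxcl3 had 2.01 at 1 h and -0.67 at 4 h. Of the lower genes, Snhg9 was 2-fold higher at 2 h, with a log2 ratio of 2.49.

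Part of these genes were 2-fold changed with hairpins against partners of Wdr82, each set against its own scrambled control. With hairpins against Set1a and Set1b at 45 min of LPS, 46 of 123 tested higher genes were 2-fold higher (37.4%, against 2.01% of all) and 13 of 32 lower genes were 2-fold lower (40.6%, against 1.19%). With the hairpin against Pnuts at 45 min, it was 31 of 115 (27.0%, against 4.30%) and 14 of 32 (43.8%, against 2.38%), and 1 higher gene was 2-fold lower and 1 lower gene 2-fold higher. The median log2 ratio of the higher genes was 0.78 with Set1a+Set1b hairpins and 0.60 with the Pnuts hairpin. Genes under 1 FPKM in both libraries of a pair were left out of these shares, and each pair is 1 library against 1. No test of the difference between hairpins was made.

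Ratios of single genes varied between the hairpins. Ms4a14 had a log2 ratio of 2.46 with Set1a+Set1b and 2.08 with Pnuts hairpins at 45 min, Pla2g7 1.94 and 3.57, and Ctsk 1.24 and 1.24. Cx3cr1 had -1.04 and -1.60, and Pgk1 -1.14 and -1.95. Lrrc27, with 1.5 and 1.05, and Mmp27, with 0.48 and 1.24, had smaller ratios there than with sh1137. Gp49a, Fhad1 and Kif5c were under 2-fold in both, with Gp49a at -0.48 and 0.37. Wdr82 itself had ratios of -0.26 and -0.17 in these cells. Ppp1r10, the gene of Pnuts, was at 332 FPKM with the Pnuts hairpin at 45 min, against 203 FPKM in its control. That is a log2 ratio of 0.70, so these levels do not show a loss of Pnuts. Setd1a, the gene of Set1a, had a log2 ratio of -0.40 with Set1a+Set1b hairpins at 45 min.

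**Figure D5:**
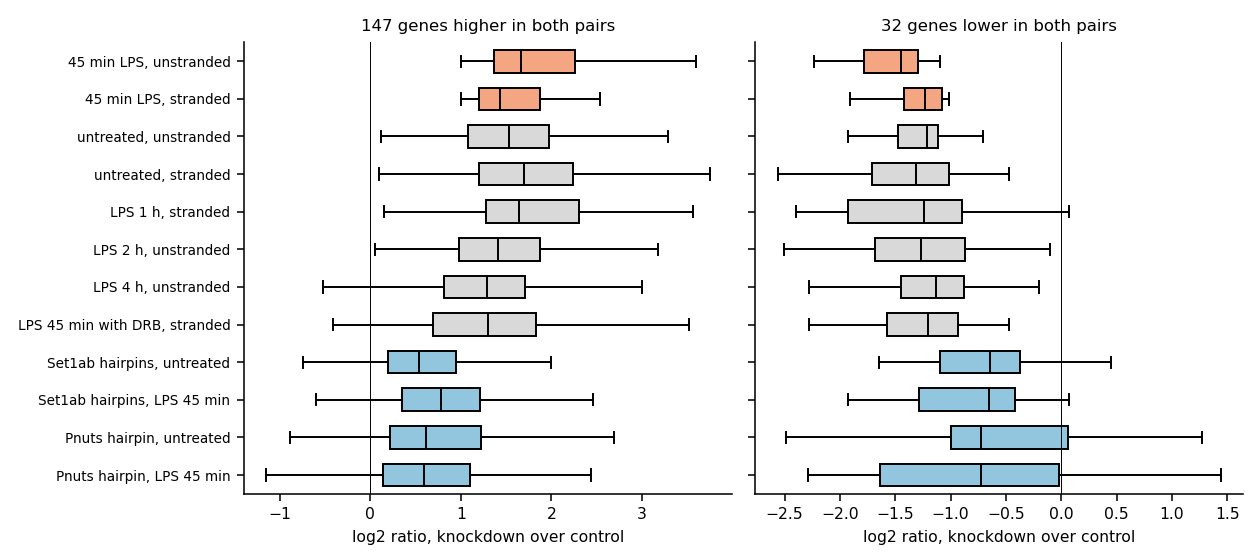
Log2 ratios of knockdown over control for the genes 2-fold higher (left) and 2-fold lower (right) in both pairs at 45 min; boxes span the quartiles, the line is the median and whiskers reach the farthest value within 1.5 box lengths. Orange boxes are the pairs that chose the genes, grey boxes other sh1137 pairs and blue boxes Set1a+Set1b or Pnuts hairpins, whose medians for the higher genes at 45 min were 0.78 and 0.60.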

How the data were processed

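The authors deposited tables of FPKM per Ensembl gene with a lower and an upper bound and a status for each library, per the file headers. TopHat 1.3.1, Cufflinks 2.1.1, Cuffdiff 2.1.1 and the build mm9 are named in the submitters' processing notes. Annotation, scaling and the level of the bounds: not given in the sources used here. Counts were not at hand, and library depth is therefore unknown.

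Ratios were taken within a table, as log2((FPKM + 1)/(FPKM + 1)), which understates the change of weak genes. A gene was tested at 1 FPKM or more in either library of each pair with status OK. It was called 2-fold when both pairs passed in 1 direction, with no test, since 2 pairs allow no exact p under 0.5. limma 3.58.1 tested 4 ratios with Benjamini-Hochberg adjustment at 0.05, 2 residual degrees of freedom and no trend. The procedure was tested on simulated data with 50 genes per change. At log2 changes of 1 and -1, limma and the 2-fold rule each found 10 and 13 of 50. At 2 and -2, limma found 34 and 41, and the 2-fold rule all 50. Of 11738 unchanged genes limma called 2 and the 2-fold rule 37. A gene that did not pass may therefore still have changed about 2-fold. RefSeq names, classes, strands and promoters were matched by symbol or synonym (GRCm38.p6).

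Named genes are Wdr82 and partners, the 15 highest and 15 lowest mean ratios among genes 2-fold in both pairs with 5 FPKM in the higher library of each, members of 40 gene lists that were 2-fold in both or had the largest ratios, the 10 genes LPS induced most, and the genes nearest the threshold of the difference test. Small RNA, clone and predicted names were left out of the ranking. Members and lists were chosen with earlier results of these data known. The polyA libraries were not used here.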

Additional observations from a re-analysis of the deposited data

How the results depend on the processing

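The 255 limma calls at 45 min became 137 with a pseudocount of 0.1 and 2 without a level filter. They became 141 from the 2 ratios at 45 min alone and 0 with a trend of spread on level. Robust shrinkage gave 433, and a fit of the 9607 genes with gene names alone gave 808. Leaving out 1 pair at a time gave 1 to 182. The 311 genes 2-fold in both pairs became 504 and 103 with pseudocounts of 0.1 and 5, 175 with a filter of 5 FPKM, 928 and 116 at 1.5-fold and 3-fold, 164 among genes alone at their locus and 179 among genes with gene names; a single pair gave 792 to 1649. In the same order, the 1649 of the unstranded pair became 2522, 601, 1030, 4055, 619, 792 and 748, and the 792 of the stranded pair became 1266, 305, 447, 2064, 340, 360 and 299. The difference from untreated cells, 0 genes, gave 1 among genes with gene names, and 0, 2, 8 and 14 with the unstranded pair, the stranded pair, the untreated unstranded pair and the untreated stranded pair left out. More genes were higher than lower in each count at 45 min, except for limma without a level filter (2 lower), with a trend (none) and without the stranded pair (1 each way). Named genes kept their direction where called. Each ratio pairs the libraries of 1 table, so knockdown and control are paired by table. The unstranded ratios at 45 min and in untreated cells come from the same set, and limma took them as independent. The labels give no replicate numbers for a further block. Where the cause of a shift is not given above, the cause was not tested. Depth is unknown, so weak genes have no counting error here.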

Other observations

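Small RNA genes behaved unlike other genes. Between the pairs, 29 genes were 2-fold higher in the unstranded and 2-fold lower in the stranded pair, and 26 the reverse. Of these 55, 44 had small RNA names, 11 had clone or predicted names and 0 had other gene names. Mir27a was at 1765 FPKM in sh1137 cells and listed at 0 in LMP cells of the unstranded pair, but at 443 FPKM in sh1137 cells and 1225 FPKM in scrambled controls of the stranded pair. SNORA17 was at 2226 and 739 FPKM in sh1137 cells and listed at 0 in both controls, and SNORD5 was listed at 0 in both sh1137 libraries, against 5373 and 3326 FPKM in controls. In untreated cells SNORA17 had log2 ratios of -10.51 and -4.98.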
